A study of Mus musculus with 8 samples.

Results

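Fibronectin and 9 secreted proteins that sit in the extracellular matrix and signal to cells were followed in mouse cardiac fibroblasts, the main matrix-producing cells of heart tissue, after forced expression of hyaluronan synthase 2. The genes were chosen by name: Fn1, Postn, Spp1, Thbs1, Thbs2, Tnc, Sparc, Ctgf (now Ccn2), Cyr61 (now Ccn1) and Tgfbi. All 10 were found among the 55414 genes of the count table and all 10 passed the expression filter that left 15150 genes for the test. Cultures received an adenovirus carrying Has2 or, as controls, an adenovirus carrying GFP, with 4 poly(A) RNA libraries for each virus. All 8 cultures were labelled wild type on a C57BL/6J background, although the protocols speak of Has2fl/fl animals, whose own Has2 gene can be deleted by Cre. All were grown from whole hearts, starved of serum for 24 h at passage 2, exposed to virus for 5 h and then stimulated for 48 h with bFGF and TGFb at 20 ng/mL, so cells with either virus had been exposed to a growth factor known to induce several of the 10 genes. Replicates 1 and 2 came from females and replicates 3 and 4 from males. Libraries of the same number carry the same preparation identifier and were compared as pairs. Whether each preparation is a separate animal is not stated, so the p-values rest on the spread among these 8 samples alone, which may be technical.

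Fibronectin is the provisional scaffold on which fibroblasts deposit collagen, and cells bind it through integrins. Matricellular proteins are secreted into the same matrix but act less as building blocks than as modulators of adhesion, growth factor availability and collagen assembly, and many are low in the healthy adult heart and high after injury. TGF-beta signalling through SMAD proteins and the mechanically controlled co-activators YAP and TAZ, which work through TEAD factors, are known inducers of several of these genes, above all Ctgf and Cyr61.

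Libraries held 46981231 to 55795187 counts. Levels are in CPM, counts divided by a library total that the TMM method corrects for composition. Has2, the targeted gene, stood at 9533, 8406, 3209 and 4859.9 CPM with the Has2 virus, against 25.2, 7.36, 18.3 and 21.3 CPM with the GFP virus, with a fitted log2 fold change of 8.46 (SE 0.55, edgeR adjusted p = 0.0226, and 0.0844 without replicate 1). Summed fibroblast markers (7 of 7 passed the expression filter) ran from 12736 to 18753 against 12948 to 18876 CPM in Has2 and GFP libraries, and summed macrophage markers (10 of 10 passed) from 912 to 2523 against 969 to 2395 CPM. Col1a1 and Col1a2 made up most of the fibroblast sum and Lyz2 was the largest part of the macrophage sum. These sums thus say little about the other markers. Endothelial markers (6 of 6) were at 8.93 to 33.2 against 8.35 to 32.8 CPM, mural markers (5 of 5) at 47.7 to 94.5 against 44.6 to 82.5 CPM and mesothelial markers (3 of 4) at 2.25 to 5.56 against 2.00 to 4.75 CPM. Cardiomyocyte markers (1 of 7) were at 3.66 to 8.59 against 4.05 to 8.56 CPM, with Myl7 at 0 in all 8 libraries. Hepatocyte markers (2 of 7) were at 0.613 to 1.01 CPM with the Has2 virus, and at 647 CPM in GFP replicate 1, where albumin alone reached 450.4 CPM, against at most 1.71 CPM in the other 3 GFP libraries. Hepatocytes also make fibronectin, so values without replicate 1 are given for Fn1. In bulk RNA, fewer cells of a type and less RNA per cell cannot be told apart.

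With the Has2 virus, fibronectin stood higher in all 4 pairs and osteopontin (Spp1) and periostin (Postn) stood lower on average, while the other 7 genes had fitted log2 fold changes between -0.041 and 0.15. None of these differences passed the test. edgeR's quasi-likelihood test with the replicate number as a block called 0 of the 10 genes at an adjusted p under 0.05, where it called 1 of 15150 genes, or 0.00660%, that gene being Has2. At an unadjusted p under 0.05 there were 2 of the 10, Fn1 higher and Spp1 lower, beside 7.49% of all genes tested, or 2.57% higher and 4.91% lower. With no replicate block edgeR also called 0 of the 10, and 0 of the 10 had an unadjusted p under 0.05, beside 2.56% of all. DESeq2 and limma-voom with the same block also called 0 of the 10. The median log2 fold change was 0.036 over the 10 genes and -0.024 over all genes tested, with 6 of the 10 positive and 4 negative, against 45.2% and 54.8% of all genes.

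Within pairs, Fn1 and Sparc were higher in all 4 pairs, 2 of 10 beside a background of 9.16%, and Postn was lower in all 4, 1 of 10 beside 7.96%. The Has2 and GFP libraries overlapped for every one of the 10 genes, and they did not overlap for 2.38% of all genes tested. In GENCODE M21 an exon of Fn1, Thbs1, Tnc and Ctgf overlaps a gene on the other strand (Apol7d, Gm29233, 8030451A03Rik and Gm15270) and an exon of Spp1 overlaps Gm42793 on the same strand, so reads of these pairs may not be separable. Counting noise was small next to these spreads, since the lowest count of any of the 10 genes in any library was 2526 (Postn in Has2 replicate 4), for which counting error alone is 1.99%.

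**Figure D1:**
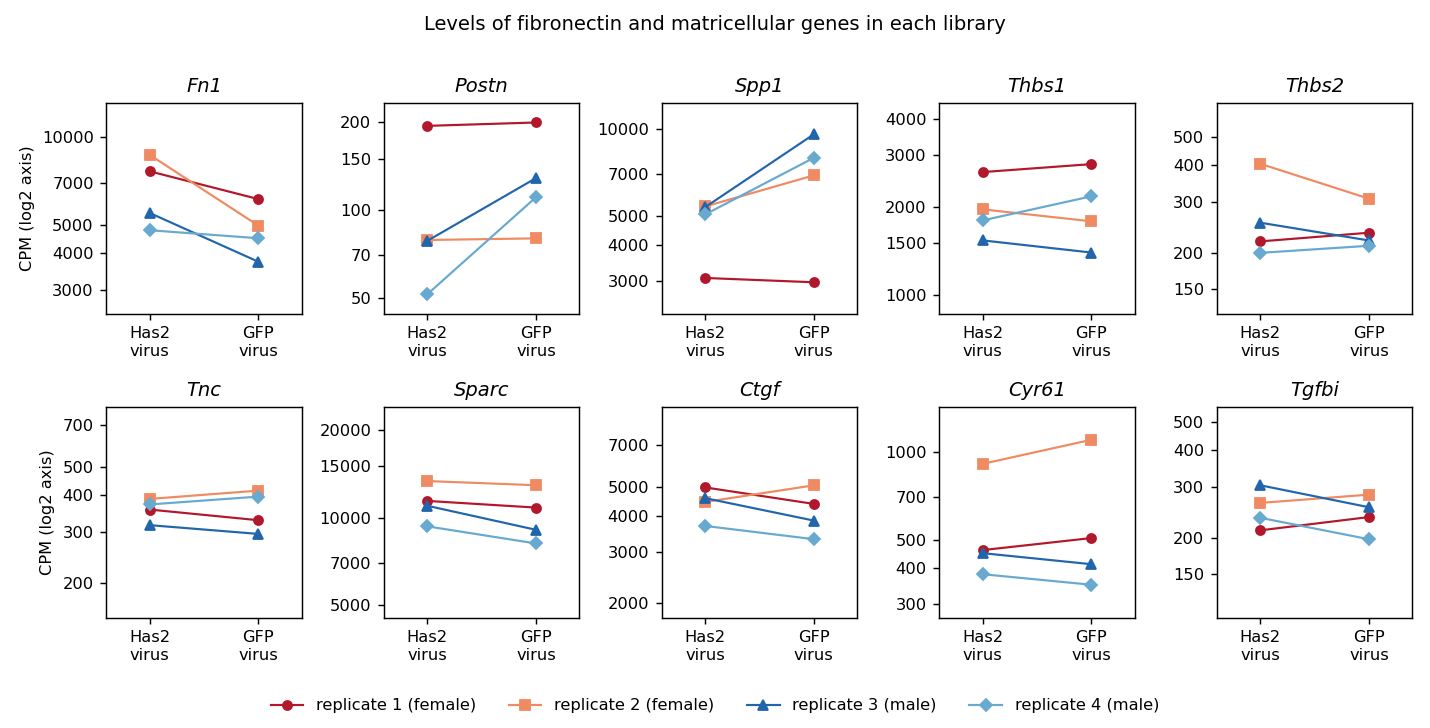
Level of each gene in each library, as TMM-scaled CPM on a log2 axis, with Has2 virus on the left and GFP virus on the right of each panel and a line joining the 2 libraries of a pair. Fn1 slopes down towards GFP in all 4 pairs, Spp1 slopes up in 3 of 4, and for Cyr61 the replicate 2 libraries lie above the other 6.

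Fibronectin (Fn1, ENSMUSG00000026193), the multidomain glycoprotein that fibroblasts assemble into fibrils, was at 7649.6, 8708, 5505 and 4804 CPM with the Has2 virus (replicates 1 to 4), against 6143, 4983, 3746 and 4509 CPM with the GFP virus. The Has2 library of each pair was the higher, but Has2 replicates 3 and 4 lay below GFP replicate 1. Means were 6666 ± 1821 CPM with the Has2 virus and 4845 ± 1004 CPM with the GFP virus (SD, n = 4 each). The log2 differences within pairs 1 to 4 were 0.32, 0.80, 0.56 and 0.091, and the fitted log2 fold change was 0.44 (95% interval 0.11 to 0.78, SE 0.14, adjusted p = 0.648 by edgeR), a fold of 1.36. Without replicate 1, whose GFP library held the hepatocyte transcripts, it was 0.51. It was 0.31 in the fit with no block that leaves out Has2 replicate 2, the library with the highest Fn1. Among the counts of the 10 genes together, Fn1 took 24.5, 24.2, 18.7 and 18.5% in the Has2 libraries and 21.4, 14.7, 12.9 and 16.5% in the GFP libraries, a larger share with the Has2 virus in every pair. Vitronectin (Vtn), another adhesive glycoprotein of plasma and matrix, did not pass the expression filter and averaged 0.0139 CPM with the Has2 virus. With the GFP virus it was at 17.6 CPM in replicate 1, the library that held the hepatocyte transcripts. In the other 3 GFP libraries it was at or under 0.0657 CPM.

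Osteopontin (Spp1, ENSMUSG00000029304), a secreted phosphoprotein that binds integrins and CD44 and is made by activated fibroblasts and macrophages, was at 3075, 5408, 5376 and 5077 CPM with the Has2 virus (replicates 1 to 4), against 2973, 6913, 9556 and 7939 CPM with the GFP virus. Both replicate 1 libraries were below the other 6. In replicates 2, 3 and 4 the Has2 library was the lower of its pair, but over all libraries the Has2 and GFP values overlapped. The log2 differences within pairs were 0.049, -0.35, -0.83 and -0.64, and the fitted log2 fold change was -0.45 (95% interval -0.83 to -0.064, SE 0.16, adjusted p = 0.648 by edgeR). Summed macrophage markers were at 2259.7, 912, 1953 and 2523 CPM with the Has2 virus and 2395, 969, 1729.5 and 2169.7 CPM with the GFP virus. They were lowest in replicate 2 and higher in the Has2 library of both male pairs, the pairs in which Spp1 was lower by the most; their part in the Spp1 values was not tested.

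Periostin (Postn, ENSMUSG00000027750), a matricellular marker of activated cardiac fibroblasts that takes part in collagen cross-linking, was at 194, 78.9, 78.4 and 51.4 CPM with the Has2 virus (replicates 1 to 4), against 199.5, 79.9, 129 and 111 CPM with the GFP virus. The libraries of a female pair lay close together, and in both male pairs the Has2 library was well below its GFP partner. The log2 differences within pairs were -0.038, -0.018, -0.70 and -1.08. The fitted log2 fold change was -0.47 (95% interval -0.94 to 0.0012, SE 0.20, adjusted p = 0.648 by edgeR). In the blocked fit it was -0.58, -0.62, -0.38 and -0.23 without replicates 1, 2, 3 and 4 in turn. It was -0.057 in the fit with no block that leaves out GFP replicate 1, the library with the highest Postn. That fit keeps Has2 replicate 1, the partner of the library left out. Tgfbi (ENSMUSG00000035493), the closest relative of periostin, a TGF-beta-induced protein that links collagens to cells, was at 213, 264, 303 and 235 CPM with the Has2 virus, against 236, 282, 255 and 198 CPM with the GFP virus. Its groups overlapped widely, and its fitted log2 fold change was 0.062 (SE 0.11, edgeR adjusted p = 0.885).

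The thrombospondins, large multimeric glycoproteins that bind the receptors CD47 and CD36 and, for thrombospondin-1, activate latent TGF-beta, did not pass the test. Thbs1 (ENSMUSG00000040152) was at 2632, 1960.2, 1534 and 1797 CPM with the Has2 virus, against 2802, 1783, 1394 and 2173 CPM with the GFP virus. Both replicate 1 libraries were the highest of their group, and the pairs split 2 against 2 in direction. Its fitted log2 fold change was -0.022 (SE 0.11, edgeR adjusted p = 0.965). Thbs2 (ENSMUSG00000023885) was at 219, 405, 254 and 200.3 CPM with the Has2 virus, against 235, 307, 221 and 212 CPM with the GFP virus. Has2 replicate 2 was the highest of the 8, the pairs again split 2 against 2, and the fitted log2 fold change was 0.11 (SE 0.11, edgeR adjusted p = 0.791). Without Has2 replicate 2, in the fit with no block, it was -0.12. Without both replicate 2 libraries, in the blocked fit, it was 0.0085.

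Tenascin-C (Tnc, ENSMUSG00000028364), an anti-adhesive matrix protein that returns in injured myocardium, varied least of the 10 genes. It was at 358, 389, 316 and 372 CPM with the Has2 virus, against 329, 416, 295 and 396 CPM with the GFP virus, a span of 1.41-fold over all 8 libraries, and its 95% interval for the log2 fold change ran from -0.20 to 0.22 (edgeR adjusted p = 0.981). Sparc (ENSMUSG00000018593), a calcium- and collagen-binding protein needed for mature collagen fibrils, was at 11417, 13355, 10986 and 9339.6 CPM with the Has2 virus, against 10831, 12925, 9088 and 8158 CPM with the GFP virus. Every Has2 library was above its GFP partner, by log2 differences of 0.076, 0.047, 0.27 and 0.20. Means of Sparc were 11274 ± 1651 CPM with the Has2 virus and 10250.3 ± 2099 CPM with the GFP virus (SD, n = 4 each). They differed by less than either SD, but these SDs hold the differences between preparations that pairing takes out. Its fitted log2 fold change was 0.15 (95% interval -0.10 to 0.40, SE 0.11, adjusted p = 0.689 by edgeR), and it ranged from 0.046 to 0.27 when a replicate or a library was left out, lowest without Has2 replicate 2 and highest without GFP replicate 2.

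The CCN proteins are small cysteine-rich integrin ligands and are widely used as transcript readouts of YAP and TEAD activity. Ctgf (ENSMUSG00000019997), the pro-fibrotic member, was at 5000.3, 4457, 4594 and 3688 CPM with the Has2 virus (replicates 1 to 4), against 4389, 5080.5, 3848 and 3322 CPM with the GFP virus. It was higher with the Has2 virus in 3 of 4 pairs, with log2 differences of 0.19, -0.19, 0.26 and 0.15 and a fitted log2 fold change of 0.10 (95% interval -0.17 to 0.37, SE 0.11, adjusted p = 0.803 by edgeR), which ranged from 0.035 to 0.20 when a replicate or a library was left out. Cyr61 (ENSMUSG00000028195), which promotes adhesion and angiogenesis, was at 461, 911, 449.9 and 381 CPM with the Has2 virus (replicates 1 to 4), against 507, 1102, 412 and 351 CPM with the GFP virus. Both replicate 2 libraries stood above the other 6, so that the difference between preparations was larger than that between viruses. The log2 differences of Cyr61 within pairs were -0.14, -0.27, 0.13 and 0.12, below 0 for both female and above 0 for both male pairs, a split found for Cyr61 and Tgfbi, 2 of the 10 genes, beside 34.5% of all genes tested, and the fitted log2 fold change was -0.041 (95% interval -0.29 to 0.21, SE 0.11, adjusted p = 0.929 by edgeR). Leaving out both replicate 2 libraries gave 0.037.

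The Cyr61 promoter is shown because it holds a match to the TEAD motif. It comes from RefSeq on build GRCm38.p6, 250 bases ending just before the transcription start (chr3:145649986-145650235, minus strand), and capitals mark the TEAD motif (CATTCC) and the TATA motif (TATAAA).
Cyr61 promoter: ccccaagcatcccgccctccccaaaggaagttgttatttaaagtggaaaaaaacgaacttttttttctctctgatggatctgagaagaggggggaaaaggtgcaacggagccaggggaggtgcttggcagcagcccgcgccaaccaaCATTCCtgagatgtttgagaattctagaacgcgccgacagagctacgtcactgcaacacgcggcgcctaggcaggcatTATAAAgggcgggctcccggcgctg
The TEAD match began at position -103 and the TATA match at -25, counted back from the start. Of 32851 RefSeq promoters of the same length, 12.6% held CATTCC on either strand and 7.59% held TATAAA on the gene's strand. Promoters were in the table for 7 of the 10 genes, namely Postn, Spp1, Thbs2, Tnc, Sparc, Cyr61 and Tgfbi, and CATTCC was found in that of Cyr61 alone. No promoter of the 7 held the AP-1 motif (TGANTCA, both strands, 6.75% of all promoters). The RUNX motif (AACCACA, both strands, 4.4%) was in 1 of the 7, that of Spp1, at the upstream of its 2 listed starts only. A match describes letters in this window and is not a bound site.

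**Figure D2:**
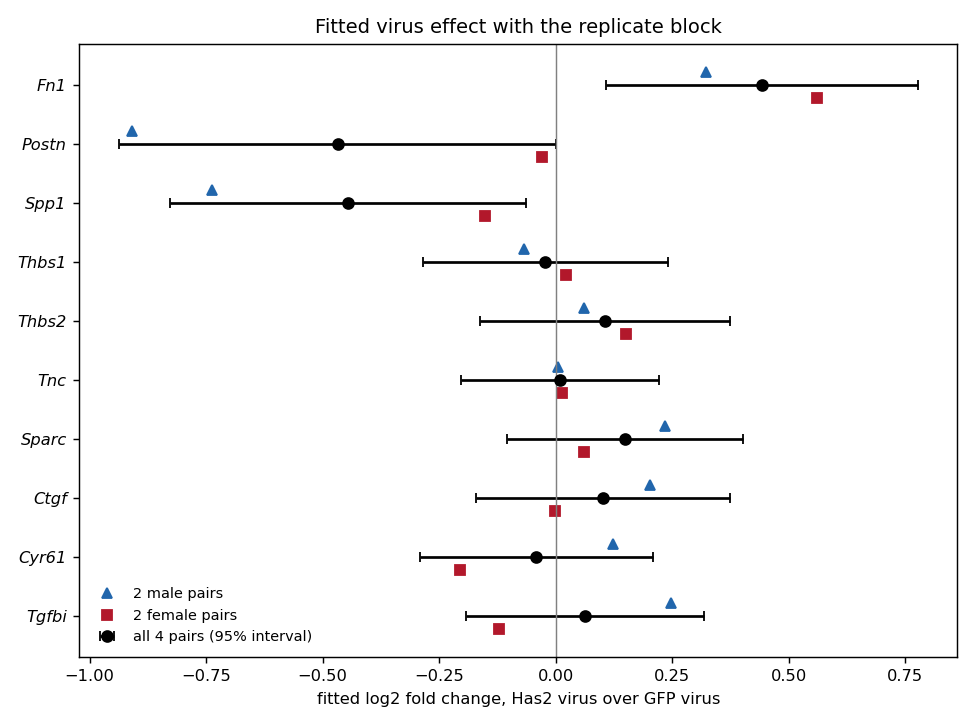
Fitted log2 fold change of each gene, Has2 virus over GFP virus, from edgeR with the replicate block. Black points with bars give all 4 pairs and the 95% interval; triangles and squares give the 2 male and the 2 female pairs. The interval of Fn1 lies above 0 and that of Spp1 below 0 before any adjustment for the number of genes, and the sexes lie farthest apart for Postn and Spp1.

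Per kb of exon, the scale on which different genes can be compared, the 10 genes spanned more than 2 orders of magnitude. The order over all 8 libraries was Spp1 (3513 ± 1379.9 CPM per kb, SD over 8 libraries), Sparc (2841 ± 484), Ctgf (1502 ± 219) and Fn1 (493 ± 143). After these came Thbs1, Cyr61, Tgfbi, Tnc and Thbs2, with Postn lowest at 13.2 ± 6.38 CPM per kb. Spp1 exceeded Sparc in 5 of 8 libraries, Thbs1 exceeded Cyr61 in 6 and Tnc exceeded Thbs2 in 7, and every other neighbour in this order kept its place in all 8 libraries. By group, Spp1 was at 2873 ± 677 CPM per kb with the Has2 virus and 4154 ± 1700.1 with the GFP virus, Sparc at 2976 ± 436 with Has2 and 2706 ± 554 with GFP, and Fn1 at 571 ± 156 with Has2 and 415 ± 85.9 with GFP (SD, n = 4 each), so the mean of Sparc was above that of Spp1 with the Has2 virus and below it with the GFP virus. With the length of the longest transcript instead, Sparc (4679) came before Spp1 (3842 CPM per kb).

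**Figure D3:**
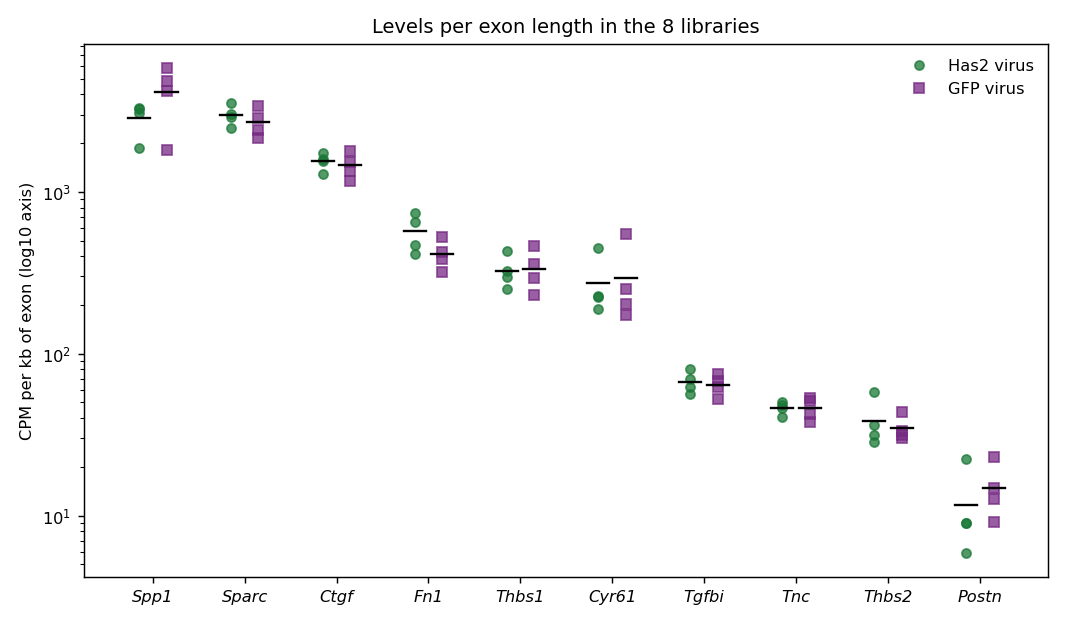
Level of each gene per kb of exon in the 8 libraries, on a log10 axis, ordered by the mean, with Has2 libraries as circles left of GFP libraries as squares and short lines at the group means. Each gene's 2 groups overlap, and neighbours in the order such as Spp1 and Sparc overlap too.

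Together the 10 genes took 3.11, 3.45, 2.91 and 2.68% of all counts in Has2 replicates 1 to 4 and 2.89, 3.17, 2.95 and 2.90% in the GFP libraries. The summed level averaged 30624 ± 4162 CPM with the Has2 virus and 29707 ± 2858 CPM with the GFP virus (SD, n = 4 each), a difference smaller than either spread between preparations. Within pairs it was higher with the Has2 virus in 3 of 4. The make-up of this sum differed within pairs. Beside the larger share of Fn1, Spp1 took 9.85, 15.05, 18.3 and 19.6% of the counts of the 10 genes with the Has2 virus, against 10.4, 20.4, 33.0 and 29.0% with the GFP virus, a smaller share in every pair. Shares of the same sum depend on each other, and a larger share of Fn1 leaves less for the rest. In replicate 1 Spp1 itself was at 3075 CPM with the Has2 virus and 2973 CPM with the GFP virus.

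Likeness of pattern was measured as the root mean square distance between centred log2 CPM values over the 8 libraries, which share preparations and depth. Among the 10 genes, Sparc and Ctgf were the most alike (0.11), followed by Thbs2 and Sparc (0.18). Of the 10303 other genes at 5 CPM or more, the nearest to Fn1 were Faxc (0.10), Ttc28 (0.11) and the protocadherin Fat1 (0.11). Fat1 was at 696, 893, 548 and 488 CPM with the Has2 virus and 564, 539.8, 426 and 484 CPM with the GFP virus; its likeness to Fn1 is what chose it. The nearest to Ctgf were Evc2 (0.067), Pdzd4 (0.068) and the epoxide hydrolase Ephx1 (0.069). The genes nearest to Spp1 lay farther off: the actin-severing protein Scin, the stromelysin Mmp3 and the collagen Col7a1 were at 0.33 each.

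The response to the Has2 virus was then compared between the male and the female pairs. Postn and Spp1 were lower with the Has2 virus mainly in the male pairs, whereas the positive value of Fn1 was the larger in the female pairs. In the blocked fit Postn had a log2 fold change of -0.91 (SE 0.10) in male and -0.029 (SE 0.10) in female pairs, a difference of -0.88 (95% interval -1.20 to -0.56, edgeR adjusted p = 0.00115). For Spp1 it was -0.74 (SE 0.12) in male and -0.15 (SE 0.12) in female pairs, a difference of -0.58 (95% interval -0.96 to -0.21, edgeR adjusted p = 0.0245), and for Tgfbi 0.25 (SE 0.084) in male and -0.12 (SE 0.084) in female pairs, a difference of 0.37 (95% interval 0.11 to 0.63, edgeR adjusted p = 0.0388). The difference between the sexes was called for these 3 of the 10 genes, beside 29.5% of all genes tested, a share near that of the 10. The call of Postn held without each replicate in turn. That of Spp1 was lost without replicates 1, 3 and 4 (edgeR adjusted p = 0.198, 0.176 and 0.0675), and so was that of Tgfbi (edgeR adjusted p = 0.0687, 0.211 and 0.183). Within the male pairs alone Postn (edgeR adjusted p = 7.2e-05) and Spp1 (edgeR adjusted p = 0.00091) passed the test, beside 24.9% of all genes. Within the female pairs alone Fn1 passed (edgeR adjusted p = 0.0434), beside 7.23% of all genes. Cyr61 was at 0.12 in male and -0.21 in female pairs (edgeR adjusted p = 0.0767 for the difference). Fn1 was positive in both, at 0.32 and 0.56, and its difference of -0.24 had a 95% interval of -0.68 to 0.21 (edgeR adjusted p = 0.419). With no replicate block edgeR called 0 of the 10 genes and 0 of 15150 for this difference, and an unadjusted p under 0.05 was found for 0 of the 10 and 13.3% of all; with the block, DESeq2 called 3 of the 10 and 3577 of 15150 genes, and limma-voom 3 of the 10 and 4459. Without the block Postn, Spp1 and Tgfbi had edgeR adjusted p values of 0.652, 0.741 and 0.619. Each sex had 2 pairs, and sex and the preparation series, whose identifiers start with different letters, cannot be told apart. Other measures differed between the sexes too. Mitochondrial transcripts took 0.417 and 0.603% of counts with the Has2 virus against 0.702 and 0.940% with the GFP virus in the male pairs, and 1.88 and 0.909% with the Has2 virus against 1.02 and 0.662% with the GFP virus in the female pairs. The difference between the sexes was called for 7 of 10 macrophage markers (5 male higher, 2 lower), 3 of 7 fibroblast markers (male lower), 0 of 6 endothelial and 0 of 5 mural markers by edgeR. Their part in the values of Postn and Spp1 was not tested.

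GC content of the transcripts moved with the changes in the male pairs. Across all genes tested, given as a description since genes are not replicates, the log2 difference and transcript GC content had a Spearman's rho of 0.69 and 0.66 in the male pairs of replicates 3 and 4, and -0.24 and -0.19 in the female pairs of replicates 1 and 2. The rho with transcript length was -0.10 for replicate 3 and -0.37 for replicate 4 (males), against 0.28 for replicate 1 and 0.53 for replicate 2 (females). Postn and Spp1 have the lowest GC content of the 10 genes, 36.3% and 43.3%, while the other 8 lie between 48.4% and 53.5% and Tgfbi is at 53.3%. A smooth trend of GC content and length, fitted to all genes in each library, put a gene like Postn at log2 differences of -1.08 and -1.01 in pairs 3 and 4, where Postn itself was at -0.70 and -1.08. With that trend removed, the log2 fold change of Postn was 0.14 in male and -0.23 in female pairs, so the difference turned to 0.36 (edgeR adjusted p = 0.15). The difference of Spp1 fell to -0.25 (edgeR adjusted p = 0.268) and that of Tgfbi to 0.13 (edgeR adjusted p = 0.471), and edgeR called 0 of the 10 genes, beside 10.6% of all, with 1 of the 10, Postn, at an unadjusted p under 0.05, beside 25.6% of all.

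Fn1 kept its direction in every pair under this step. After it the Fn1 log2 differences within pairs were 0.26, 0.53, 0.45 and 0.16, positive in all 4 (the trend itself stood at 0.27 for Fn1 in pair 2), and its fitted log2 fold change over both sexes was 0.35 (edgeR adjusted p = 0.326); edgeR then called 0 of the 10 genes for the virus, beside 0.0132% of all. Sparc also stayed positive in all 4 pairs, at 0.18, 0.17, 0.14 and 0.028. Spp1 was left at 0.11, -0.17, -0.28 and -0.29, with a fitted -0.16, and Postn at -0.23, -0.23, 0.37 and -0.097, with a fitted -0.047. Cyr61 was then at -0.014, -0.12, -0.0026 and -0.067, below 0 in each pair.

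**Figure D4:**
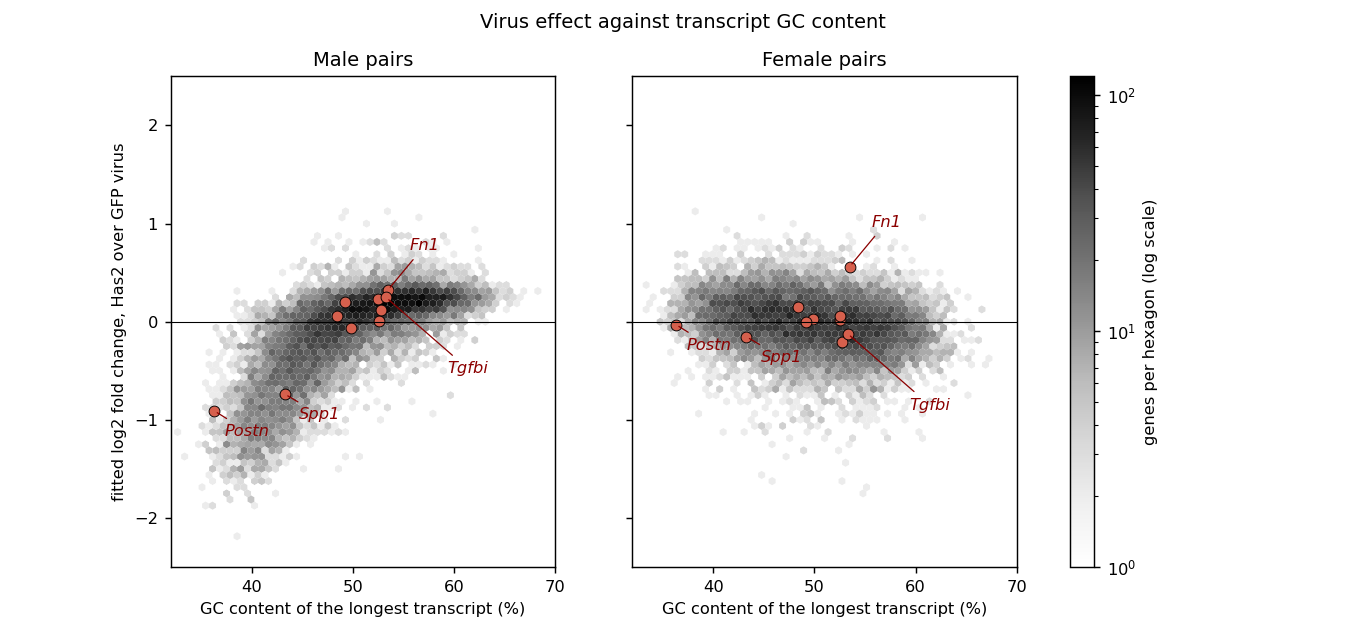
Fitted log2 fold change, Has2 over GFP virus, against the GC content of the longest transcript, in male pairs on the left and female pairs on the right. Grey hexagons count all 15123 tested genes with a GC value (30 and 43 lie outside the axes) and red points are the 10 genes. In male pairs Postn and Spp1 lie below 0 with the other genes of low GC content, and Fn1 lies above 0 in both panels.

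**Figure D5:**
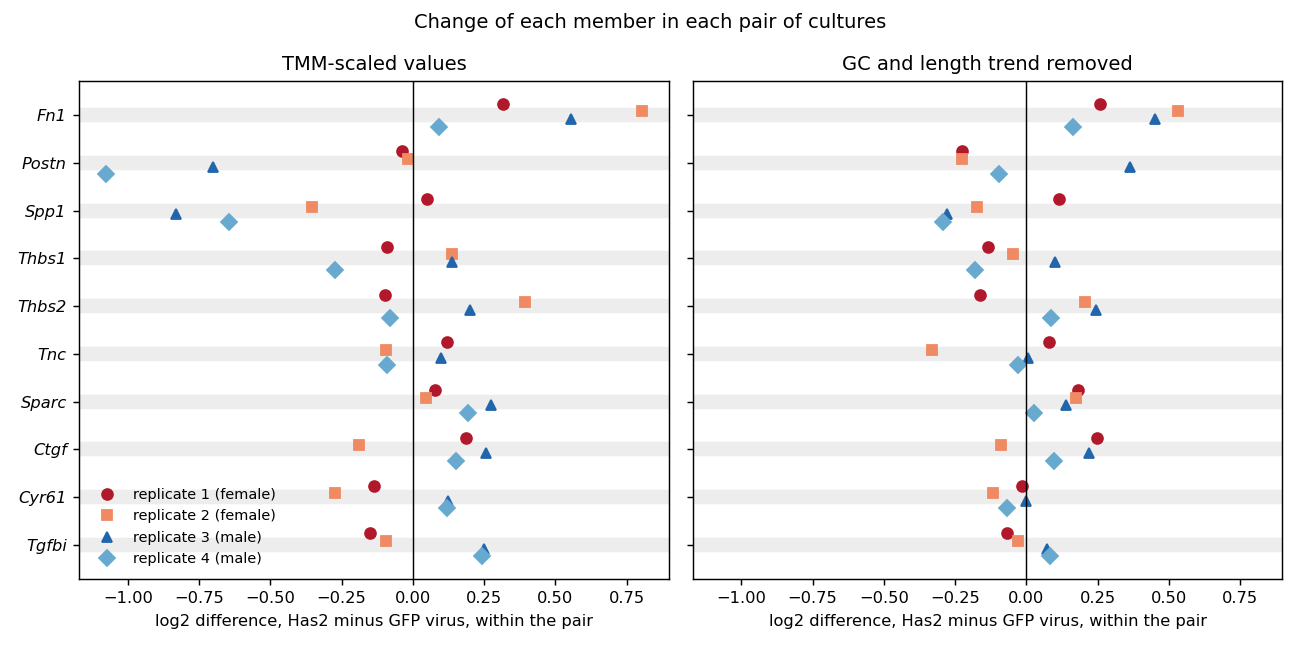
Log2 difference, Has2 minus GFP virus, of each gene in each pair, from TMM-scaled values on the left and after removal of the trend in GC content and length on the right. The male points of Postn and Spp1 lie nearer to 0 on the right, where that of Postn in replicate 3 has crossed 0, from -0.70 to 0.37. The 4 points of Fn1 are above 0 in both panels.

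The promoters of the 3 genes whose response differed between the sexes before the trend was removed are shown from the same RefSeq table, 250 bases before the start on GRCm38.p6. For Postn the downstream of its 2 listed starts is used (chr3:54360857-54361106, plus strand) and for Spp1 the upstream of 2 (chr5:104434861-104435110, plus strand); Tgfbi has 1 (chr13:56609336-56609585, plus strand). Capitals mark TATAAA on the gene's strand and AACCACA on either strand.
Postn promoter: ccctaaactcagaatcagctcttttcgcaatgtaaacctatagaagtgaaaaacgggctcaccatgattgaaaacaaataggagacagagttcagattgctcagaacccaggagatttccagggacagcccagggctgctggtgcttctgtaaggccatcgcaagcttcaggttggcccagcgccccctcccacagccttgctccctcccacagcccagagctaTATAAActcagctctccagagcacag
Spp1 promoter: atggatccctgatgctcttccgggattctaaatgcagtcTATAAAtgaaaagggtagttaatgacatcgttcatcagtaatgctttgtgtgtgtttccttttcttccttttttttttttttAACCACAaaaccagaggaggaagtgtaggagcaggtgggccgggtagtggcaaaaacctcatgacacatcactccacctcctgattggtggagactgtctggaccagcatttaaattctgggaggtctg
Tgfbi promoter: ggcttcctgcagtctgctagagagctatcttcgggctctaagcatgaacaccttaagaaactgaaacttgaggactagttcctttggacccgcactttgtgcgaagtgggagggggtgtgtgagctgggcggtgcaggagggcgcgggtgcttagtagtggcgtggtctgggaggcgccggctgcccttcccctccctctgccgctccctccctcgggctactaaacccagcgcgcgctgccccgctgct
Their GC contents were 52.0%, 43.6% and 62.4%. The windows of the other listed starts had 40.4% (Postn) and 35.6% (Spp1) and held none of the 4 motifs searched. The TATAAA and AACCACA matches of Postn and Spp1 thus belong to the starts shown only. None of the 3 windows shown held CATTCC or TGANTCA.

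Genes around the 10 were read from lists of other matricellular genes, of receptors, and of TGF-beta and YAP target genes. Of 26 other matricellular genes 21 were tested and 0 passed in either direction, beside 0.00660% of all genes tested. Positive fold changes were found for 15, beside 45.2% of all, and 1 (Aebp1) reached an unadjusted p under 0.05, beside 7.49%. The median was 0.099, beside -0.024 over all genes tested. Those of smallest p were Aebp1, a collagen-binding protein, at 0.22 (SE 0.092), and fibulin-1 (Fbln1), which binds fibronectin, at 0.21 (SE 0.092). Next were Smoc1 at 0.24 (SE 0.13) and the proteoglycan Spock2 at 0.38 (SE 0.24). Spock2 was barely expressed, at a mean of 0.42 CPM with the Has2 virus and 0.32 CPM with the GFP virus. The median level of all genes tested was 16.6 CPM. Aebp1 was at 738, 820.2, 1051 and 955 CPM with the Has2 virus and 645, 766, 813 and 819 CPM with the GFP virus, higher with the Has2 virus in all 4 pairs (edgeR adjusted p = 0.648). Fbln1 and Smoc1 were at -0.16 and -0.20 without Has2 replicate 2 in the fit with no block. Without both replicate 2 libraries, in the blocked fit, each was at 0.21.

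Of 18 receptors 17 were tested and 0 passed. Fold changes were positive for 6 and negative for 11, beside 45.2% and 54.8% of all genes tested. An unadjusted p under 0.05 was reached by 1 (Cd36), beside 7.49% of all, and the median was -0.040. The thrombospondin receptor Cd36 was at -0.56 (SE 0.21), Lrp1, an endocytic receptor that clears thrombospondins and CTGF, at 0.30 (SE 0.13), the SPARC receptor Stab1 at 0.25 (SE 0.11) and the integrin subunit Itgb1, which pairs in the main fibronectin receptor, at -0.21 (SE 0.14). Lrp1 was higher with the Has2 virus in all 4 pairs and Cd36 in 1. Itga5, the partner of Itgb1 for fibronectin, averaged 329 ± 73.0 CPM with the Has2 virus and 325 ± 43.0 CPM with the GFP virus (SD, n = 4 each); it was added after its values were seen. Between the sexes 9 of 17 receptors differed by edgeR's adjusted p, beside 29.5% of all genes tested. The male log2 fold change was the lower for 7 of these, whose transcripts had 37.8% (Calcrl) to 44.8% GC (Itgb1), and higher for Plaur (53.0% GC) and Itgb5 (57.0% GC). Cd47 (42.2% GC) and Cd44 (44.5% GC) were not called, and these genes were named after their values were seen. Cd36 was at -1.02 in male and -0.12 in female pairs and Itgb1 at -0.48 in male and 0.064 in female pairs. When a replicate or a library was left out, Cd36 ranged from -0.92 to -0.25 and Itgb1 from -0.33 to -0.032. Stab1 had a log2 fold change of -0.12 without GFP replicate 2 in the fit with no block. Without both replicate 2 libraries, in the blocked fit, it was 0.21 for Stab1. Its levels were 110, 23.4, 96.0 and 122 CPM with the Has2 virus and 115, 18.4, 71.7 and 101 CPM with the GFP virus. Stab1 was lowest in replicate 2 with either virus, as were the summed macrophage markers, whose part in these values was not tested.

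All 16 TGF-beta and YAP target genes were tested, 0 passed and 0 reached an unadjusted p under 0.05, beside 7.49% of all genes tested. Positive fold changes were found for 9, beside 45.2% of all, and the median was 0.035. The focal adhesion adaptor Tgfb1i1 was at 0.19 (SE 0.10), the angiomotin Amotl1 at 0.17 (SE 0.094), the YAP target Ankrd1 at -0.20 (SE 0.11) and the SMAD co-repressor Skil at -0.39 (SE 0.24). Skil (41.0% GC) was at -0.96 in male and 0.17 in female pairs, and its virus effect ranged from -0.65 to -0.17 when a replicate or a library was left out. For the difference between the sexes 4 of 21 other matricellular genes and 4 of 16 target genes were called, beside 29.5% of all genes tested.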

How the data were processed

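RNA was made into libraries with a stranded poly(A) kit, per the labels' protocols, and whole-number counts of reads per gene were deposited by the authors in 1 table, made with HTSeq 0.10.0 after FastQC 0.10.1 on build mm39 (GRCm39), per the submitters' processing notes. Which aligner, annotation release and strand setting were used is not given in the sources used here. The labels gave each library its virus, sex and replicate number. Libraries held 46981231 to 55795187 counts, and at this depth counting error of the 10 genes is small beside the spread between cultures.

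Counts were fitted with edgeR 4.0.16 (R 4.3.3): TMM scaling, its default filter on low counts, the quasi-likelihood test and Benjamini-Hochberg adjustment over 15150 genes, with the replicate number as a block. Same-numbered libraries carry 1 preparation identifier in the labels, and their deviations from the group means correlated by 0.58, 0.62, 0.53 and 0.44 in replicates 1 to 4. The sexes were compared in the same kind of fit, male minus female. Alternatives were no block, other scalings and filters, DESeq2 1.42.0, limma-voom (limma 3.58.1), removal of a smooth trend of GC content and length (99.82% of tested genes had a GC value), and leaving out replicates or single libraries. Whole replicates were left out in the blocked fit. Single libraries were left out with no block, so the partner stayed in and differences between preparations enter those values. Log2 values within pairs used a pseudocount of 2 CPM. Scripts were tested on simulated data. There the virus test called 12 of 67 genes changed 1.5-fold, 43 of 67 changed 2-fold and 62 of 66 changed 4-fold. It also called 5 unchanged genes. The comparison of the sexes called 25 of 67, 46 of 67 and 55 of 66 genes, and 19 unchanged genes. A change of 1.5-fold was thus missed more often than found, so a gene that did not pass may still have changed. The simulated counts held no trend in GC content or length within pairs, so the simulated shares may not hold for the real data. GC content and length came from GENCODE M21 and promoters from RefSeq, both on GRCm38, matched by gene ID or symbol, so no coordinates of the counted genes are given. By rule, the genes named were the 10, Has2 and up to 4 genes of smallest p in each of 3 lists. The rule also took the 3 genes nearest in pattern to each of Fn1, Ctgf and Spp1. Values are also given for Vtn, Itga5, Calcrl, Plaur, Itgb5, Cd47, Cd44, albumin and Myl7, and Col1a1, Col1a2 and Lyz2 are named. This rule did not choose any of these. The 10 genes and the lists were chosen with earlier results of these data known. A Cre virus mentioned in the protocols is not analysed here.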

Additional observations from a re-analysis of the deposited data

Results flagged for a closer look

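Among 20 groups of 4 libraries checked (the 10 genes with each virus), 2 held a library far from the other 3, and chance alone sets apart about 1 group in 20. Spp1 in Has2 replicate 1 was at 3075 CPM, below the other Has2 libraries by 0.858 of the group's range, and the GFP library of the same preparation was also the lowest of its group at 2973 CPM. Cyr61 in Has2 replicate 2 was at 911 CPM, above the others by 0.849 of the range, and its GFP partner was the highest of its group at 1102 CPM.

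The response to the Has2 virus differed between the sexes by edgeR's test for Postn (male minus female -0.88 on the log2 scale, adjusted p = 0.00115), for Spp1 (-0.58, adjusted p = 0.0245) and for Tgfbi (0.37, adjusted p = 0.0388). Both male pairs were lower for Postn and Spp1 and higher for Tgfbi. After removal of the trend in GC content and length none of the 3 was called by edgeR (1 of them, Postn, had an unadjusted p under 0.05, beside 25.6% of all genes), and the sexes also differ in preparation series, so that these cannot be told apart.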

How the results depend on the processing

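The virus effect called 0 of the 10 genes under each of the 23 alternatives run. Over all genes it called 1 in the blocked fit and 1 with no replicate block, 0 with library totals as scaling, 118 without a low count filter (2 higher, 116 lower), 61 with DESeq2 and the block (12 higher, 49 lower), 7 with DESeq2 and no block, 2 after removal of the trend in GC content and length, 2 with the GC trend alone removed, and 0 to 1 when replicates or libraries were left out. Has2 itself had an adjusted p of 0.0538 with library totals and 0.0844 without replicate 1. Fn1 ranged from 0.31 to 0.62 over these alternatives, Postn from -0.89 to -0.021 and Spp1 from -0.76 to -0.16, with no change of sign. With no replicate block Fn1 was 0.46, Postn -0.36 and Spp1 -0.53. Removing the GC trend alone, and leaving out replicates in the comparison of the sexes, were chosen after seeing the data. Signs turned for Tnc (-0.00024 with no replicate block, -0.0041 with library totals, -0.069 after removal of the trend in GC content and length, -0.082 after the same and with no block, -0.018 with the GC trend alone removed), for Thbs1 (0.0044 without a low count filter) and for Mmp3 (0.055, 0.055 and 0.012 with these trends removed). When replicates or libraries were left out, the log2 fold changes that turned ranged as follows: Col7a1 -0.38 to 0.034, Cyr61 -0.46 to 0.38, Fbln1 -0.16 to 0.58, Mmp3 -0.26 to 0.075, Scin -0.37 to 0.062, Smoc1 -0.20 to 0.54, Stab1 -0.12 to 0.52, Tgfbi -0.034 to 0.16, Thbs1 -0.19 to 0.17, Thbs2 -0.12 to 0.28 and Tnc -0.066 to 0.088. Single libraries were left out with no block, where the partner stays in and differences between preparations enter the value. With whole replicates left out in the blocked fit, Fbln1 stayed within 0.18 to 0.30 and Smoc1 within 0.15 to 0.38. Stab1 then stayed within 0.19 to 0.38, Thbs2 within 0.0085 to 0.20 and Cyr61 within -0.096 to 0.037. The cause of each turn was not tested.

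For the difference between the sexes edgeR called 4470 genes and 3 of the 10 in the blocked fit, 0 genes and 0 of the 10 with no replicate block, 1611 genes (900 male higher, 711 lower) and 0 of the 10 after removal of the trend in GC content and length, 1953 genes and 0 of the 10 with the GC trend alone removed, and 2353 to 4972 genes and 1 to 3 of the 10 when replicates were left out. Postn was called without each replicate; Spp1 and Tgfbi were called without replicate 2 and not without replicates 1, 3 or 4, and Tgfbi not with library totals (adjusted p = 0.0746) or without a low count filter (0.0796). The difference turned after removal of that trend for Postn (0.36), Thbs1 (0.051), Thbs2 (0.14), Tnc (0.11) and Sparc (-0.094), with the GC trend alone removed for Postn (0.24) and Sparc (-0.021), and when replicates were left out for Fn1 (-0.47 to 0.025), Thbs1 (-0.29 to 0.15), Thbs2 (-0.32 to 0.16) and Tnc (-0.12 to 0.12). Counting error of the 10 genes was small beside the spread between cultures.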
